A study of Homo sapiens with 12 samples.

Results

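Terminal nucleotidyltransferases are enzymes that add nucleotides to the 3′ end of finished RNA without a template. The 7 genes described here, TUT1, TUT4, TUT7, TENT2, TENT4A, TENT4B and MTPAP, were chosen by name among the enzymes that put uridine or adenosine tails on RNA. They and the lists of related genes below were chosen with earlier results of these data known. All 7 were found by symbol among the 60483 Ensembl genes of the total RNA tables, and all 7 passed the filter on low counts. The cells were HEK293, an established human embryonic kidney line. In the mut lines a catalytic mutant of the exoribonuclease DIS3L2 was produced, and in the WT lines wild-type DIS3L2. In both, the FLAG-tagged, recoded DIS3L2 came from an inducible Flp-In T-REx cassette that also carried sh-miRNAs against endogenous DIS3L2 mRNA, and 100 ng/ml doxycycline was given for 3 days. From each variant, 3 rRNA-depleted, strand-specific libraries of total RNA and 3 of small RNA were made. The labels do not say that replicates were separate cultures or how many cell lines stood for a variant, so p-values reflect only how far these libraries scatter, which may be technical.

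A uridine tail marks many cytoplasmic RNAs for decay, and DIS3L2 is the 3′ to 5′ exonuclease known to prefer such tails. TUT4 and TUT7 are the cytoplasmic enzymes that write them, on let-7 precursors held by LIN28 and on mRNAs with short poly(A) tails. Adenosine tails added by other family members stabilise an mRNA, activate its translation, or hand a nuclear RNA to the exosome, depending on the enzyme and the compartment.

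Counts in genes ranged from 8467957 to 9009114 in the mut and from 8315986 to 12675042 in the WT total RNA libraries. Counts outside genes made up 12.3% to 13.7% of all deposited counts in mut and 16.6% to 19.4% in WT. Counts for several alignments made up 37.3% to 42.0% in mut and 30.5% to 39.5% in WT. Whether a read with several alignments was counted more than once is not given, so these need not be shares of reads. Reads of DIS3L2 itself numbered 10242, 8858 and 9496 in mut, against 7382, 10386 and 6322 in WT. Among HEK293 markers, NEFL averaged 126 ± 9.09 CPM in mut, against 88.3 ± 5.49 CPM in WT, and INA 35.1 ± 2.08 CPM in mut, against 24.0 ± 2.38 CPM in WT (SD, n = 3; CPM are read counts scaled to library size), whereas PAX2 and NEFM were too low to test. The 5 HEK293 markers summed to 156 to 168 CPM in mut and 110 to 120 CPM in WT, 4 epithelial markers to 354 to 372 CPM in mut and 295 to 327 CPM in WT, and 4 fibroblast markers to 4.43 to 6.66 CPM in mut and 2.60 to 3.55 CPM in WT. Of 4 blood markers CD3E and HBB were at 0 in all 6 libraries, as was the fibroblast marker DCN. These differences run with the groups and their part in the results below was not tested. In such bulk RNA, fewer cells with a transcript and less of it per cell cannot be told apart.

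To place the genes, the stretches of 150 bases before the annotated starts of TUT7 and TENT2, with the largest falls of the 7 genes, and of MTPAP, with the smallest fall that passed the test, are printed 5′ to 3′ on the gene's own strand (RefSeq, GRCh38.p14). Capitals mark CCGGAAGT, the core bound by ETS factors, GGGCGGGG, an SP1-type GC box, and GCATGCGC, part of the NRF1 site.
TUT7 (chr9:86354411-86354560, minus strand): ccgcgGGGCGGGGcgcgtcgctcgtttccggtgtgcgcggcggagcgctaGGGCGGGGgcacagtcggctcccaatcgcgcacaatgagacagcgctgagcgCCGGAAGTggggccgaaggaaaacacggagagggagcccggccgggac
TENT2 (chr5:79612291-79612440, plus strand): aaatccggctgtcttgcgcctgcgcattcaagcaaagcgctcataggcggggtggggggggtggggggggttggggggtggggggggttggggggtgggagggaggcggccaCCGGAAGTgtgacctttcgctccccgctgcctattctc
MTPAP (chr10:30349279-30349428, minus strand): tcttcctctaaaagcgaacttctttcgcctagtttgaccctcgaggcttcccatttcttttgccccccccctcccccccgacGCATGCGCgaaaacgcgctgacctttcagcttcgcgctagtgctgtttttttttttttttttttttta
The motifs were chosen after the sequences were seen and were searched on both strands, and in the printed stretches no marked motif overlaps another. The ETS core began 48 bases before the TUT7 start and 38 bases before the TENT2 start, and the NRF1 motif 68 bases before the MTPAP start. Windows of 250 bases before to 50 after the start were matched for 5 of the 7 genes, and not for TUT4 or TENT4A. In those windows the ETS core was found only for TUT7 and TENT2, the NRF1 motif only for MTPAP, and the GC box for TUT7, TENT4B and TUT1. A further window of TENT4B lacked the GC box. Motifs for CRE and YY1 binding were also searched and were found in none of these windows. Among all 35116 such windows 4.14% held the ETS core, 3.05% the NRF1 motif and 22.8% the GC box.

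Of the 7 genes 5 were lower and 1 was higher in mut (edgeR quasi-likelihood test, Benjamini-Hochberg adjusted p under 0.05 over 14409 genes), and TUT1 did not pass. TUT4 and TUT7, which add uridine, both fell, as did the cytoplasmic poly(A) polymerase TENT2, the nuclear TENT4B and the mitochondrial MTPAP. TENT4A, the closest relative of TENT4B, rose. Over all genes tested, 14.2% were lower and 13.0% higher, 27.2% in either direction. Among 2012 protein-coding genes longer than 30 kb with a mean of 38.3 to 99.5 CPM, the range of the members other than TUT1, 26.4% were lower and 11.2% higher. The median log2 fold change of the 7 genes was −0.27, against −0.01 over all genes tested and −0.07 among those 2012 genes. In 6 of the 7 genes the 3 mut libraries lay wholly on one side of the 3 WT libraries, as they did in 40.5% of all genes (21.2% with mut below and 19.4% with mut above). Of the 6, 5 had mut below. No estimate reached 1.5-fold in either direction: the lowest ratio of mut over WT was 0.691, for TUT7, and the highest 1.25, for TUT1.

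**Figure D1:**
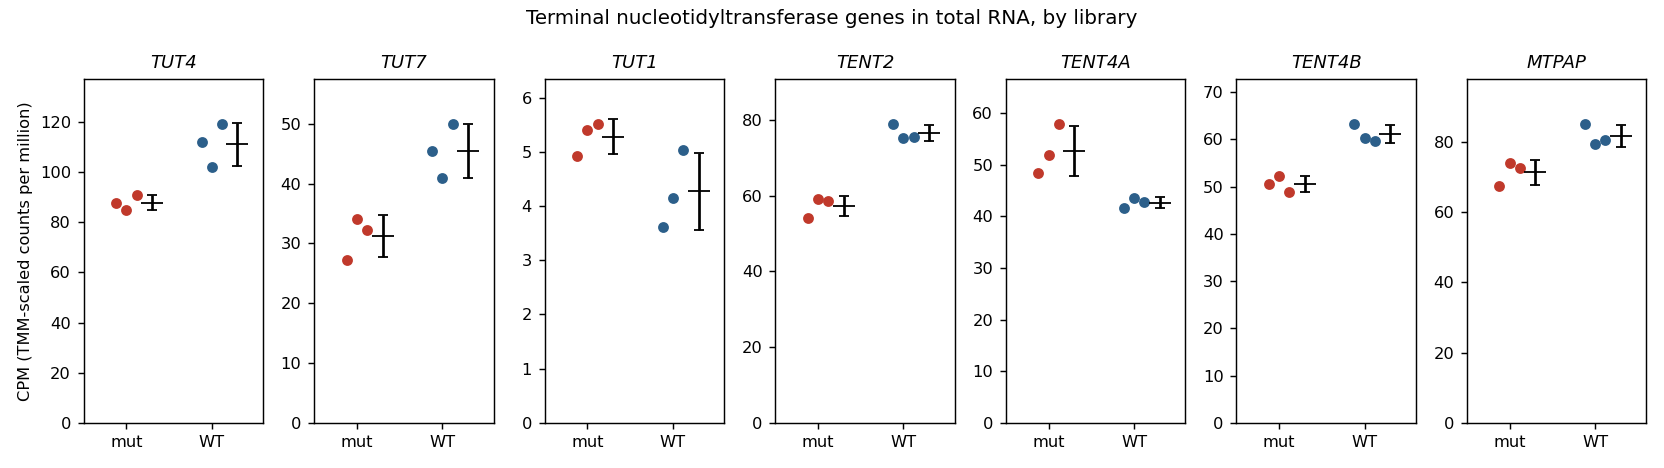
CPM (read counts scaled to library size with TMM, linear axes from 0) of each gene in the 3 mut (red) and 3 WT (blue) total RNA libraries, with mean and SD in black. The mut points lie below the WT points for TUT4, TUT7, TENT2, TENT4B and MTPAP, above them for TENT4A, and overlap them for TUT1.

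TUT7 (ENSG00000083223.16, chromosome 9, 86287733 to 86354410, hg38), a zinc knuckle uridylyltransferase also known as ZCCHC6, showed the largest estimated fall of the family. It stood at 27.2, 34.1 and 32.3 CPM in mut, against 45.4, 40.9 and 50.0 CPM in WT. The highest mut library was 6.82 CPM below the lowest WT library. The log2 fold change was −0.53 (SE 0.09, 95% interval −0.72 to −0.34, edgeR adjusted p = 9.8e-05), or 30.9% lower in mut. Of all genes tested, 4.55% had a lower fold change.

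TUT4 (ENSG00000134744.12, chromosome 1, 52423275 to 52553463), or ZCCHC11, is the paralog that acts beside TUT7 on the same precursors and mRNAs. Its libraries held 87.5, 85.0 and 91.0 CPM in mut, against 112, 102 and 119 CPM in WT. All 3 mut libraries were lower, by at least 11.1 CPM, and varied less among themselves (coefficient of variation 3.42%) than those of WT (7.77%). The log2 fold change was −0.34 (SE 0.07, adjusted p = 0.00061), 20.7% lower in mut. A long noncoding RNA gene, LOC105378723, overlaps 21456 bases of TUT4 in RefSeq, and since the strand setting of the counting is not given in the sources used here, reads of that gene cannot be told apart from those of TUT4.

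The paralogs were also set against each other within a library, which needs no scaling. There were 0.311, 0.401 and 0.355 TUT7 reads per TUT4 read in mut and 0.405, 0.400 and 0.419 in WT. The ratio averaged 0.356 ± 0.045 in mut and 0.408 ± 0.010 in WT (SD, n = 3), with 1 mut library inside the WT range. On the log2 scale it differed by −0.21 (exact two-sided permutation p = 0.2; the smallest possible with 3 against 3 libraries is 0.1). Without mut library 1 the difference was −0.11 (exact permutation p = 0.4). A test whose smallest p is 0.1, and larger with 1 library left out, cannot pass a threshold of 0.05. Whether the pair fell unequally was therefore not settled.

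TUT1 (ENSG00000149016.14, chromosome 11, 62575052 to 62591523) uridylates U6 snRNA in the nucleus and is also described as the poly(A) polymerase Star-PAP. It was counted only 44, 46 and 48 times in the mut and 35, 53 and 41 times in the WT libraries. This corresponds to 5.28 ± 0.32 CPM in mut, against 4.27 ± 0.72 CPM in WT, and the groups overlap. The log2 fold change was 0.32 with a 95% interval of −0.06 to 0.69 (SE 0.18, edgeR adjusted p = 0.20), so neither no change nor a rise by 1.5-fold lies outside it. EEF1G, which encodes a translation elongation factor and ends 1160 bases from TUT1, is listed at 0 in all 6 libraries, an observation made after its values were seen. Reads assigned to more than one gene are not in the gene counts, and whether TUT1 lost reads in this way was not tested.

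TENT2 (ENSG00000164329.12, chromosome 5, 79612441 to 79688246), also called GLD2 or PAPD4, lengthens poly(A) tails in the cytoplasm once an RNA-binding protein has brought it to an mRNA. It had the widest gap between groups relative to their SDs of the 7 genes, at 54.2, 59.1 and 58.5 CPM in mut, against 79.0, 75.2 and 75.4 CPM in WT. The gap between the groups was 16.1 CPM, beside SDs of 2.69 CPM in mut and 2.14 CPM in WT. The log2 fold change was −0.42 (SE 0.07, 95% interval −0.56 to −0.28, adjusted p = 5.9e-05), 25.2% lower in mut.

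TENT4A (ENSG00000112941.11, chromosome 5, 6713432 to 6757044; PAPD7) and TENT4B (ENSG00000121274.11, chromosome 16, 50152911 to 50235310; PAPD5) are the relatives of the yeast Trf4 enzymes. TENT4B adds short adenosine tails that lead nuclear RNAs to the exosome, and both can put mixed tails on mRNA that slow its deadenylation. TENT4A stood at 48.4, 51.8 and 57.9 CPM in mut, against 41.6, 43.6 and 42.8 CPM in WT. Every mut library was above every WT library, and mut libraries spread more (SD 4.85 CPM in mut, against 1.03 CPM in WT). Its log2 fold change was 0.30 (SE 0.08, 95% interval 0.14 to 0.46, adjusted p = 0.0051). TENT4B stood at 50.5, 52.3 and 49.0 CPM in mut, against 63.3, 60.3 and 59.7 CPM in WT, and the groups do not overlap. It was 17.3% lower in mut (log2 fold change −0.27, SE 0.07, 95% interval −0.42 to −0.13, adjusted p = 0.0052). Per TENT4B read there were 0.958, 0.991 and 1.18 TENT4A reads in mut and 0.657, 0.723 and 0.716 in WT. The read ratio averaged 1.04 ± 0.12 in mut and 0.699 ± 0.037 in WT, a log2 difference of 0.57 at the smallest p that 3 against 3 libraries allow (exact permutation p = 0.1). It exceeded the spread between replicates and does not depend on how the libraries are scaled.

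MTPAP (ENSG00000107951.11, chromosome 10, 30309801 to 30349278), the poly(A) polymerase of mitochondria, is encoded in the nucleus. It had 67.4, 74.0 and 72.6 CPM in mut, against 85.2, 79.3 and 80.6 CPM in WT, with a gap of 5.33 CPM between the groups. The log2 fold change was −0.20 (SE 0.07, 95% interval −0.33 to −0.06, edgeR adjusted p = 0.033), 12.7% lower in mut. This was the weakest of the calls. It was lost without mut library 1 or 3 (edgeR adjusted p = 0.14 and 0.086) and without WT library 1 or 3 (0.16 and 0.10), and neither DESeq2 (adjusted p = 0.082) nor upper quartile scaling (0.063) gave it.

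**Figure D2:**
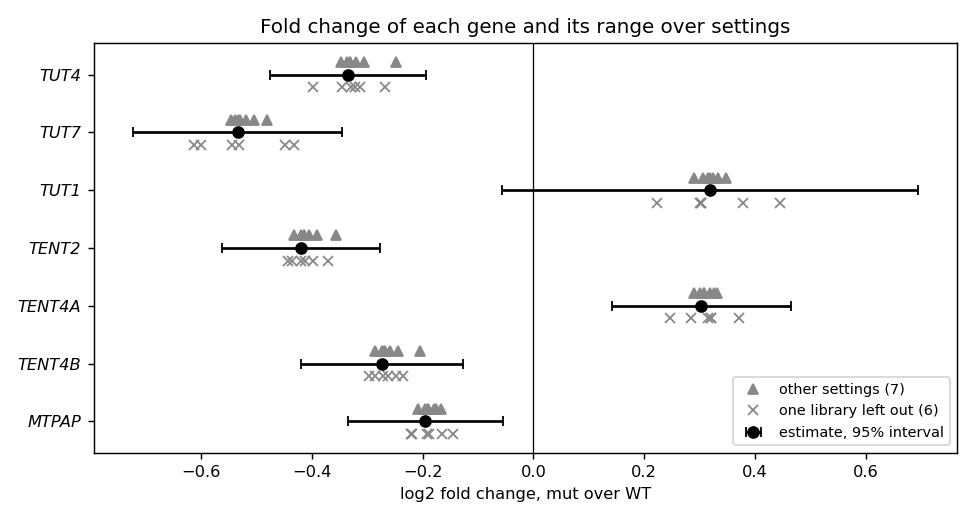
Log2 fold change of mut over WT for each gene with its 95% interval (black), beside the values with 1 library left out (crosses) and under 7 other settings (triangles). Each gene keeps its side of 0 under all of these, and only the interval of TUT1 spans 0.

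Together the 7 genes summed to 356 ± 14.2 CPM in mut, against 423 ± 15.1 CPM in WT, with ranges of 340 to 367 CPM in mut and 406 to 433 CPM in WT. Reads per gene also depend on transcript length, which the files do not give, so levels were not ranked between genes. As shares of the summed reads, which need no scaling, TENT4A made up 14.2% to 15.8% in mut and 9.66% to 10.8% in WT. TUT1 made up 1.44% to 1.5% in mut and 0.841% to 1.16% in WT. TUT7 made up 8.01% to 9.42% in mut, against 10.1% to 11.6% in WT, and TENT2 15.9% to 16.3% in mut, against 17.4% to 18.5% in WT. These shares were not tested. The shares of TUT4, TENT4B and MTPAP overlapped or met between the groups.

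The fold changes were then set beside those of the 20 nearest tested protein-coding genes, 10 on each side. TUT7 lay below all 20 of its neighbours, whose median log2 fold change was −0.11 and of which 1 was lower and 0 higher. TENT2 and TUT4 lay below 19 of 20 each, with neighbour medians of −0.10 and −0.11 and 3 neighbours lower and 1 higher in each case. TENT4B lay below 17 of 20 (median −0.07, 4 lower and 1 higher). TENT4A was close to its surroundings on chromosome 5, between 1317752 and 14616180. Of its 20 neighbours 14 were higher and 0 lower, their median was 0.28, and TENT4A at 0.30 exceeded 11 of them. TUT1, at 0.32, had neighbours with a median of 0.16 (7 higher, 0 lower) and exceeded 18 of 20. MTPAP, at −0.20, was also close to its neighbours (median −0.14, 6 lower and 2 higher). The part of the neighbourhood in each result was not tested.

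**Figure D3:**
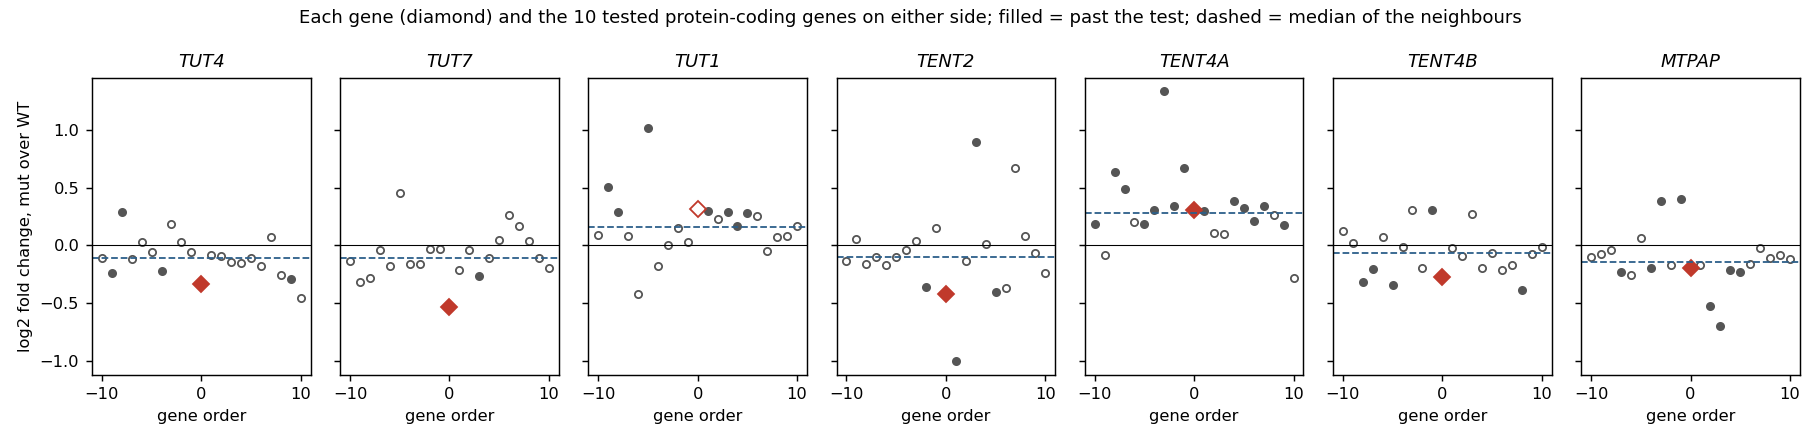
Log2 fold change of mut over WT (vertical) for each gene (red diamond) and the 10 tested protein-coding genes on either side, by order along the chromosome (horizontal). Filled symbols passed the test and the dashed line is the median of the neighbours, which lies near −0.1 around TUT7, TENT2 and TUT4 and at 0.28 around TENT4A.

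Longer genes were lower in mut more often: 25.0% of 2485 protein-coding genes over 100 kb and 18.1% of 3958 between 30 and 100 kb, against 6.06% of 2294 up to 10 kb. The spans of the 7 genes ran from 16.5 kb for TUT1 to 130 kb for TUT4, with TENT4A at 43.6, TENT2 at 75.8 and TENT4B at 82.4 kb. With the trend on span removed from each library, the log2 fold changes of TUT4 and TENT4B were −0.25 and −0.20 (adjusted p = 0.0031 and 0.023). Those of TUT7 and TENT2 were then −0.48 and −0.36, and that of TENT4A 0.33.

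Across the 6 total RNA libraries, the genes whose log2 CPM followed a member most closely were taken by Pearson r among 9690 genes with a mean of at least 10 CPM. For TUT7 these were the centriolar gene ANKRD26 (r = 0.9992) and the kinetochore motor gene CENPE (r = 0.9982). CENPE stood at 67.5 ± 11.1 CPM in mut, against 122 ± 16.3 CPM in WT. For TUT4 they were the receptor gene ERBB4 and ABHD10 (r = 0.9988 and 0.9973), for TENT2 the initiation factor gene EIF1AX and MBIP (0.9981 and 0.9974), and for TENT4B the aryl hydrocarbon receptor gene AHR and PARD3B (0.9977 and 0.9971). USO1 and ZNF714 were closest to MTPAP (0.9977 and 0.9955), and PLCG2 and NUP88 to TENT4A (0.9927 and 0.9916). Between 341 genes, for TENT4A, and 1475 genes, for TUT7, had an r above 0.9, and all of these values take in the difference between the groups, which the 6 libraries share.

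Of the other tailing enzymes 5 of 8 were tested, and 3 were lower and 0 higher (14.2% lower and 13.0% higher over all genes tested). TENT5C, a cytoplasmic poly(A) polymerase, averaged 13.3 ± 0.96 CPM in mut, against 18.6 ± 0.95 CPM in WT (−0.48 on the log2 scale, SE 0.11, edgeR adjusted p = 0.0014). TRNT1, which adds the CCA end of tRNAs, averaged 27.2 ± 1.32 CPM in mut, against 34.4 ± 1.22 CPM in WT (−0.34, adjusted p = 0.0039). PAPOLA, the main nuclear poly(A) polymerase, passed narrowly (−0.18, adjusted p = 0.039), and the call was lost without mut library 1 or 2 or WT library 1 or 3 (adjusted p = 0.19, 0.070, 0.17 and 0.22), under upper quartile scaling (0.078), once the span trend was taken out (0.088) and in DESeq2 (0.075). TENT5A was at 20.9 ± 1.63 CPM in mut, against 19.3 ± 1.42 CPM in WT (adjusted p = 0.38). PAPOLB, TENT5B and TENT5D had too few counts to test.

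In the let-7 pathway TUT4 and TUT7 act with LIN28, and DIS3L2 removes the uridylated precursor. There 2 of 6 tested genes were higher and 2 lower (13.0% higher and 14.2% lower over all genes tested). DIS3L2, which came from the induced cassette, is among the 2 that were higher. DIS3L2, whose count may sum the transgene and what remains of the endogenous transcript, was at 1092 ± 51.6 CPM in mut, against 785 ± 25.8 CPM in WT. TARBP2, a partner of Dicer, rose by 0.41 on the log2 scale (adjusted p = 0.00016). DICER1 and LIN28B fell by 0.23 and 0.22 (edgeR adjusted p = 0.011 and 0.023). Neither call held when mut library 1, WT library 1 or WT library 3 was left out, and 2 genes of the list then passed. LIN28B also missed in DESeq2 (adjusted p = 0.053) and with the span trend removed (0.11). LIN28A, the other let-7 binding protein, had 1 count over all 6 libraries together.

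Of 14 enzymes that shorten or trim tails, 1 was higher, 2 were lower and 11 did not pass, with a median log2 fold change of −0.08. Over all genes tested 13.0% were higher and 14.2% lower, so these counts are close to that background. TOE1, a deadenylase that trims snRNAs, averaged 46.9 ± 1.79 CPM in mut, against 36.1 ± 2.12 CPM in WT (0.37, SE 0.08, adjusted p = 0.00083). PAN3, of the PAN2-PAN3 deadenylase, averaged 28.5 ± 3.44 CPM in mut, against 37.2 ± 1.69 CPM in WT (−0.39, adjusted p = 0.0021). PDE12, which removes adenosine tails in mitochondria, fell by 0.22 (adjusted p = 0.019), a call lost without mut library 1 or 3 or WT library 1 or 3 (adjusted p = 0.11, 0.056, 0.068 and 0.13) and once the span trend was taken out (0.087). CNOT6L was at 63.5 ± 5.36 CPM in mut, against 71.7 ± 5.47 CPM in WT (adjusted p = 0.089).

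Among 19 factors that act on uridylated or deadenylated mRNA, 5 were higher and 1 lower, and DIS3L2 is one of the 5. The shares over all genes tested were 13.0% higher and 14.2% lower. EDC4, a scaffold of decapping, rose by 0.47 (155.8 ± 2.25 CPM in mut, 113 ± 4.27 CPM in WT, adjusted p = 2.9e-06). UPF1, a helicase of nonsense-mediated and histone mRNA decay, and LSM3, of the ring that binds such tails, rose by 0.23 and 0.21 (edgeR adjusted p = 0.014 and 0.020). Without WT library 1 or WT library 3 both missed, and 3 and 2 factors of the list then passed. LSM3 also missed with no filter on low counts (adjusted p = 0.061).

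Of 12 genes of the nuclear exosome, its cofactors and its adaptor complexes, among them TRAMP, 2 were higher, 3 were lower and 7 did not pass (13.0% higher and 14.2% lower over all genes tested). MTREX, the helicase of the TRAMP complex that TENT4B joins, averaged 176 ± 9.89 CPM in mut, against 148 ± 6.43 CPM in WT (0.26 on the log2 scale, SE 0.06, edgeR adjusted p = 0.0031). ZCCHC7, the zinc knuckle subunit of the same complex, averaged 21.0 ± 2.69 CPM in mut, against 28.6 ± 3.06 CPM in WT (−0.45, adjusted p = 0.0020). MPHOSPH6, an exosome cofactor, and ZFC3H1, of the nuclear poly(A) tail exosome targeting complex, fell by 0.55 and 0.53 (adjusted p = 0.00010 and 0.00012). Of 8 partners in cytoplasmic polyadenylation, 1 was higher and 3 lower. CPEB2, an RNA-binding protein of the family that recruits this machinery, had 5.01 ± 0.44 CPM in mut, against 8.53 ± 0.20 CPM in WT (−0.76, SE 0.15, adjusted p = 0.00050). QKI, which binds TENT2, fell by 0.23 (adjusted p = 0.0058), SYMPK, a scaffold of the polyadenylation machinery, rose by 0.28 (adjusted p = 0.0068), and CPEB4 fell by 0.26 (adjusted p = 0.037). The call of CPEB4 was lost without mut library 1 or 3 or WT library 1 or 3 (adjusted p = 0.23, 0.10, 0.13 and 0.13), under upper quartile scaling (0.059), once the span trend was taken out (0.082) and in DESeq2 (0.12).

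Proteins that handle U6 snRNA, the RNA TUT1 uridylates, had 2 of 12 higher and 2 lower. Among all genes tested 13.0% were higher and 14.2% lower, so these counts are close to that background. SSB, the La protein that binds uridine-ending transcripts of RNA polymerase III, fell by 0.34 (92.3 ± 13.3 CPM in mut, 117 ± 6.72 CPM in WT, edgeR adjusted p = 0.0024). MEPCE, a capping enzyme of 7SK RNA, rose by 0.28 (adjusted p = 0.0052, and 0.060 without WT library 1). LSM3 is named above, and LSM8, of the nuclear ring on U6, fell by 0.23 (adjusted p = 0.038, and 0.21, 0.073, 0.13 and 0.13 without mut library 1, mut library 2, WT library 1 or WT library 3, 0.11 in DESeq2 and 0.064 under upper quartile scaling). Without WT library 1 or WT library 3 the list held 1 and 2 calls. Of the 6 U6 and U6atac genes 5 were higher and 0 lower in total RNA, and 4 passed with the trend on span removed. RNU6-7 had 11.3 ± 1.78 CPM in mut, against 4.03 ± 1.04 CPM in WT (1.45 on the log2 scale), RNU6-2 4.52 ± 0.73 CPM in mut and 1.48 ± 0.22 in WT (1.58), RNU6-9 2.14 ± 0.32 in mut and 0.681 ± 0.059 in WT (1.62), and RNU6ATAC 26.8 ± 5.02 in mut and 15.3 ± 4.36 in WT (0.80). With that trend removed, the log2 fold changes of RNU6-7, RNU6-2, RNU6-9 and RNU6ATAC were 1.11, 1.24, 1.29 and 0.48. The copies are nearly identical and reads with several alignments were not counted, so values of single copies are uncertain.

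In mitochondria, where MTPAP adds the tails, 7 of 20 RNA factors were lower and 1 higher. Their median log2 fold change was −0.14, against −0.01 over all genes tested, of which 14.2% were lower and 13.0% higher. TRMT10C and PRORP, subunits of mitochondrial RNase P, fell by 0.35 and 0.47 (edgeR adjusted p = 0.0013 and 0.0075), PRORP not without WT library 1 (adjusted p = 0.089). FASTKD5, which acts in mitochondrial RNA processing, fell by 0.28 (adjusted p = 0.0056, and 0.063 without mut library 3), and its relative FASTK rose by 0.31 (adjusted p = 0.0027). With mut library 3, WT library 1 or WT library 3 left out, 5 factors of the list passed. Of the 13 mitochondrial mRNAs 12 were lower and 0 higher, with a median of −0.52. Among the 12, the mut and WT libraries overlapped for MT-ND1, MT-ND3 and MT-ND4L. Without WT library 3 only 8 passed, and in DESeq2 7 passed. MT-ND5 averaged 116 ± 14.1 CPM in mut, against 174 ± 25.7 CPM in WT, and MT-CO2, MT-ATP6 and MT-CYB fell by 0.56, 0.78 and 0.64.

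**Figure D4:**
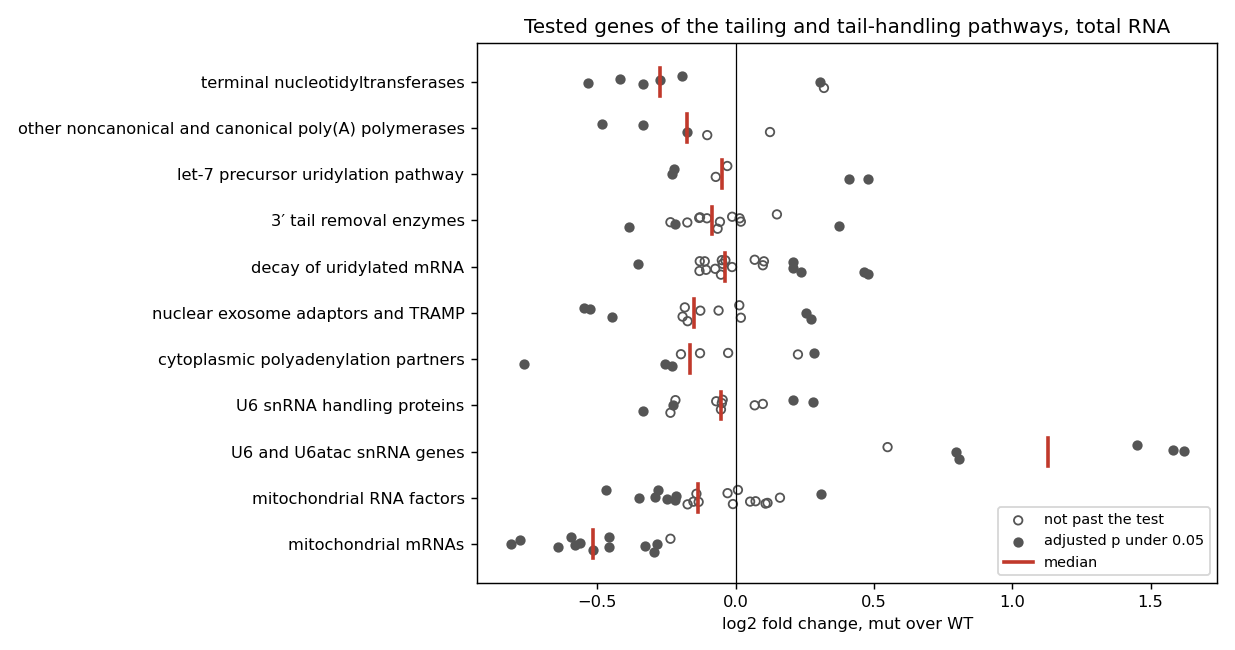
Log2 fold change of mut over WT for every tested gene of the 7 nucleotidyltransferases and of 10 lists of related genes (rows). Filled points passed the test, open points did not, and red bars are list medians, which lie at −0.27 for the 7 nucleotidyltransferases, at 1.13 for U6 and U6atac genes and at −0.52 for mitochondrial mRNAs.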

How the data were processed

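The authors deposited raw read counts per Ensembl gene for 6 total RNA libraries and, for 6 small RNA libraries, fragment counts with FPM (a signal scaled to depth) per feature. The submitters' processing notes name STAR 2.4.0, HTSeq 0.6.1, DESeq2 1.8.2, SAMtools 1.2-10, CASAVA 1.8.2 and FastQC 0.11.3, without roles, and hg38. No annotation version or strand setting is given in these sources. Counts in rows without a gene (57.8% to 63.2% of all deposited counts) were left out.

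Symbols matched 56321 of 60483 identifiers, and 39378 had a single RefSeq entry (GRCh38.p14, the same build), which gave coordinates. Mut was tested against WT with edgeR 4.0.16 in R 4.3.3 (TMM, filterByExpr, no covariate). CPM are TMM-scaled, and standard errors come from the fold change and its F statistic. No replicate pair agreed within sampling noise (chi-square per degree of freedom 1.98 to 4.38). Named are the 7 genes, DIS3L2, the 4 smallest adjusted p of each list, and the 2 closest genes by Pearson r. Alternatives were RLE and upper quartile scaling, DESeq2 1.42.0, no filter, protein-coding genes only, removal of the trend on gene span, a replicate block, and leaving out each library. Members and lists were chosen with earlier results of these data known.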

Additional observations from a re-analysis of the deposited data

How the results depend on the processing

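Over the 13 alternatives, the 7 genes gave 91 values, none with the opposite sign, and 84 stayed on the same side of the threshold. The other 7 were MTPAP, which no longer passed under upper quartile scaling (−0.17, adjusted p = 0.063), in DESeq2 (−0.19) or with the replicate block (−0.20, adjusted p = 0.083). Leaving out 1 library at a time, MTPAP ranged from −0.22 to −0.15. TUT7 ranged from −0.61 to −0.43 over all alternatives, TENT2 from −0.44 to −0.36, TUT4 from −0.40 to −0.25, TENT4B from −0.30 to −0.20 and TENT4A from 0.25 to 0.37. Without 1 library the number of genes past the threshold was 2 to 4 in the let-7 list, 2 to 8 in the decay list, 1 to 5 among U6 proteins and 5 to 9 among mitochondrial RNA factors. DESeq2 called 7 mitochondrial mRNAs, and 2 U6 proteins passed with the replicate block, under which PAPOLA, LSM3 and LSM8 also missed the threshold (adjusted p = 0.081, 0.062 and 0.059). Over all genes 3916 passed, and 2672 to 3999 under the alternatives. The labels do not say whether replicate numbers pair the libraries. Deviations from the group means of same-numbered libraries correlated at −0.286, −0.356 and 0.045 across 9690 genes, and mut library 1 correlated best with WT library 2. Deviations within a group of 3 libraries cancel out, so these correlations depend on each other and cannot settle the pairing. The block gave 1675 genes higher and 1845 lower, against 1867 higher and 2049 lower without it. Counts of 35 to 53 per library limit TUT1.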

Other observations

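In the small RNA libraries, which held 493314 to 1219718 fragments, 1 of the 15590 deposited features lay within the span of a nucleotidyltransferase gene. It is a locus of 77 nt reconstructed from reads by the authors, on the plus strand of chromosome 11 from 62582804 to 62582880, within TUT1, and it had 0 fragments in all 6 libraries.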
